A study of Mus musculus with 3 samples.

Results

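Layer 2/3 excitatory neurons were examined in single-nucleus RNA sequencing (snRNA-Seq) data from mouse prefrontal cortex (PFC). They were chosen by counts, among nuclei that had 200 or more genes and less than 10% of mitochondrial counts. A nucleus was taken when it held at least 3 UMIs (unique molecular identifiers, each standing for 1 captured RNA molecule) summed over *Cux2*, *Otof* and *Rasgrf2*, at least 1 UMI of *Slc17a7*, none of *Gad1*, *Gad2* or *Slc32a1*, and at most 1 of *Foxp2* and *Hs3st4* together. Of 43464 kept nuclei, 1993 met the rule, with 609 in the C57BL/6J library, 846 in the *Nav1* KO library and 538 in the BTBR library. The other 19409 nuclei with *Slc17a7* and no inhibitory UMI are called the remaining excitatory nuclei. The mice of all 3 libraries were aged 6 to 8 weeks. The first library was a pool of 5 male wild-type C57BL/6J mice. The second was a pool of 4 male *Nav1* KO mice on the C57BL/6J background. They carry a CRISPR-made deletion in exon 1 of *Nav1* in every cell. The third was from the inbred strain labelled BTBR T<+> Itpr3<tf>/J, with the number of mice not given in the sources used here. C57BL/6J and *Nav1* KO nuclei had been sorted as a fixed mixture of NeuN+ (neuronal) and NeuN- nuclei before capture, which bears on any share of nuclei. The paper does not describe the sort of the BTBR library. With 1 library per group no test between groups was possible. Strain or genotype, pool and run cannot be told apart, and intervals are exact 95% intervals that cover counting error only.

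Neurons of layer 2/3 are glutamatergic pyramidal cells that send axons to other cortical areas of the same and the opposite hemisphere, and in the PFC they integrate input from other cortex and thalamus. *Cux2* encodes a homeobox transcription factor of upper-layer neurons, *Rasgrf2* a calcium-regulated exchange factor for Ras and Rac, and *Otof* otoferlin, a calcium sensor of vesicle fusion. *Nav1*, neuron navigator 1, encodes a microtubule-binding protein at the growing ends of axons, and BTBR is an inbred strain that lacks a corpus callosum, the tract formed largely by axons of upper-layer neurons.

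The layer 2/3 nuclei of the C57BL/6J, *Nav1* KO and BTBR libraries held 2758258, 5156609 and 2690810 UMIs in total. A typical nucleus (median) had 3943, 5219 and 4446 UMIs and 1892, 2208.5 and 2017.5 genes. They were deeper than the remaining excitatory nuclei, whose medians were 2410, 3047 and 2758 UMIs, and among nuclei at each higher count of the chosen markers the median depth was generally higher. At the edge of the rule, 334 C57BL/6J, 405 *Nav1* KO and 297 BTBR nuclei were just inside with exactly 3 UMIs of the chosen markers, and 568, 679 and 634 were just outside with 2. The remaining excitatory nuclei therefore hold nuclei that resemble those chosen. Most layer 2/3 nuclei were chosen through *Cux2* and *Rasgrf2*. A UMI of *Cux2* was present in 89.7%, 89.2% and 88.1% of them, of *Rasgrf2* in 76.5%, 78.7% and 74.0%, and of *Otof* in 26.6%, 21.2% and 26.8% (C57BL/6J, *Nav1* KO and BTBR in this order here and throughout). Barcodes that occurred in a pair of libraries numbered 71, 66 and 61, and none of them belonged to a layer 2/3 nucleus in both.

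The share of layer 2/3 nuclei was highest in the *Nav1* KO library as deposited, but not after every nucleus was brought to 1 depth. They made up 4.16% (3.84–4.50%) of the C57BL/6J, 6.02% (5.63–6.42%) of the *Nav1* KO and 3.64% (3.34–3.96%) of the BTBR nuclei, which gave ratios to C57BL/6J of 1.45 (1.30–1.61) and 0.875 (0.777–0.984). The median depth of all kept nuclei moved with these shares in part, at 2074, 2754 and 2510.5 UMIs. Among the nuclei of at least 2000 UMIs, which were 7617, 9479 and 9433, the shares in the counts as deposited were 7.25%, 8.64% and 5.53%, with ratios to C57BL/6J of 1.19 (1.07–1.33) and 0.764 (0.676–0.862). When the same nuclei were brought down at random to 2000 UMIs, 154 of 7617, 158 of 9479 and 159 of 9433 met the rule. These are shares of 2.02% (1.72–2.36%), 1.67% (1.42–1.95%) and 1.69% (1.44–1.97%), whose intervals overlap, and the *Nav1* KO share was then 0.824 (0.656–1.04) times that of C57BL/6J.

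**Figure D1:**
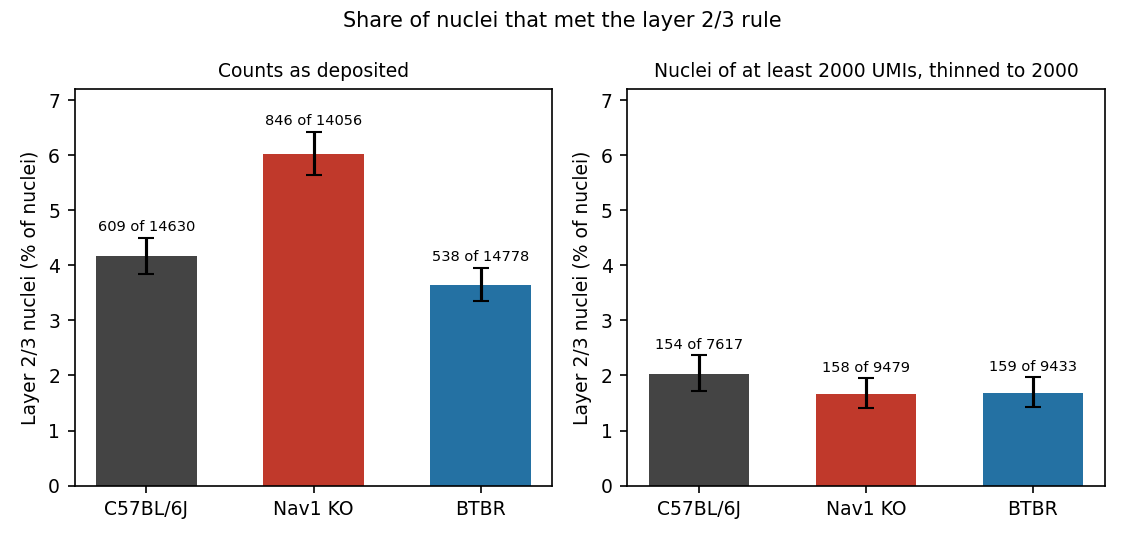
Share of nuclei (%) that met the layer 2/3 rule in each of the 3 libraries, over all kept nuclei with counts as deposited (left) and over the kept nuclei of at least 2000 UMIs, each thinned to 2000 (right). Bars are shares, lines are exact 95% binomial intervals for counting error, and the *Nav1* KO bar is the highest at 6.02% on the left but not on the right, where the shares lie between 1.67% and 2.02%.

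Levels are given as scaled CPM, counts divided by all UMIs of the same nuclei and multiplied up to a common total. They were made from sums over all nuclei of a class in a library and then scaled so that the median gene had a ratio of 1 to the C57BL/6J layer 2/3 nuclei. They compare 1 gene between classes or libraries and do not rank genes against each other. The genes of the rule are a description only. *Cux2* (chr5:121856366-122050102, mm10) was at 450, 373 and 400 scaled CPM in layer 2/3 nuclei and at 77.9, 73.9 and 74.95 in remaining excitatory nuclei. *Rasgrf2* was at 341, 310 and 296 against 53.2, 51.9 and 52.3. *Otof* was at 77.2, 48.6 and 70.0 against 11.7, 8.20 and 8.77, with the *Nav1* KO layer 2/3 level the lowest.

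The label was checked with 11 upper-layer markers that the rule did not use, of which 10 passed the limit of a mean of 20 CPM. Of these, 5 were at least 1.5-fold higher in layer 2/3 than in remaining excitatory nuclei in 3 of 3 libraries and none was lower. Their median ratios were 1.77, 1.61 and 1.60, while 0.667% of 7049 genes tested were that much higher and 0.936% that much lower, with medians of 0.995, 0.999 and 0.994. *Calb1*, which encodes the calcium buffer calbindin, was at 91.0, 56.5 and 53.1 scaled CPM against 37.3, 26.0 and 25.6. *Nectin3*, a cell adhesion gene, was at 161, 127 and 125 against 69.3, 65.5 and 61.2. *Lamp5*, a membrane protein gene of upper-layer and some inhibitory neurons, was at 143, 185 and 173 against 74.4, 101 and 101. *Cux1*, the relative of *Cux2*, was at 168, 133 and 122 against 86.9, 70.5 and 75.4, and *Enpp2*, which encodes the enzyme autotaxin, at 170, 134 and 134 against 88.9, 84.2 and 78.6. All 5 were higher in layer 2/3 nuclei in each library.

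**Figure D2:**
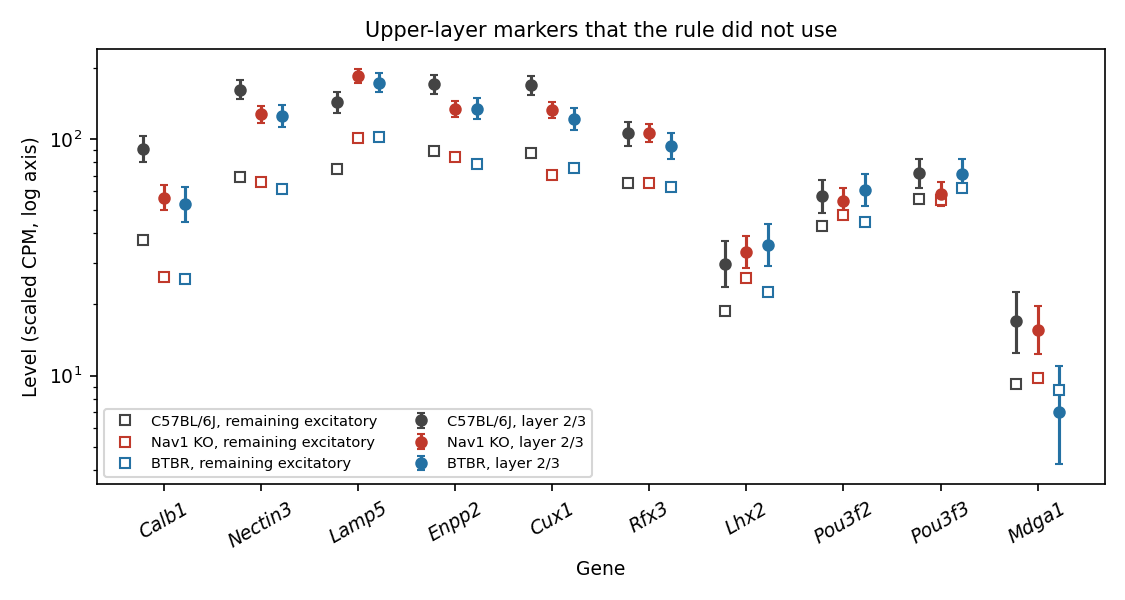
Levels (scaled CPM, log axis) of 10 upper-layer markers that the rule did not use, in layer 2/3 nuclei (filled circles with exact 95% counting intervals) and remaining excitatory nuclei (open squares) of the 3 libraries. *Calb1*, *Nectin3*, *Lamp5*, *Cux1* and *Enpp2* lie higher in layer 2/3 nuclei of every library, as *Nectin3* at 161 against 69.3 in C57BL/6J, and *Mdga1* is the marker that missed the limit on low levels.

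Most markers of the deeper layers that could be compared were lower. All 4 layer 5 markers compared were at least 1.5-fold lower in layer 2/3 nuclei in 3 of 3 libraries, as were 0.936% of all genes. *Fezf2*, a transcription factor that specifies subcortically projecting neurons, was at 10.5, 12.8 and 9.58 scaled CPM against 26.7, 32.6 and 30.3. *Etv1*, a transcription factor of layer 5, was at 29.4, 40.2 and 31.7 against 73.9, 82.0 and 73.3. Of 3 layer 6 markers outside the rule, 2 were lower and 1 was not past the fold in every library, and the co-repressor gene *Tle4* was at 65.6, 70.9 and 74.8 against 173, 161 and 147. *Rorb*, a nuclear receptor of the middle layers, was at 96.4, 110 and 99.5 against 151, 194 and 178, so its transcripts were reduced in the chosen nuclei but not absent.

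Over all genes tested outside the rule, those whose lowest ratio of the 3 libraries was highest were *Plk5*, *Calb1*, *Gucy1a1*, *Nectin3*, *Trpc6*, *Evc2*, *Stard8*, *Robo3*, *Vmn2r84* and *Ankrd6*. With nuclei thinned to 2000 UMIs before the rule, the lowest ratio was 1.01 for *Stard8*, 1.41 for *Vmn2r84* and 1.48 for *Gucy1a1*, within the fold, and 1.58 in place of 2.37 for *Plk5*. *Plk5* (chr10:80356459-80365489), a polo-like kinase gene expressed in brain, was at 97.9, 116 and 205 scaled CPM in layer 2/3 and at 40.1, 48.8 and 83.3 in remaining excitatory nuclei. Its layer 2/3 ratio was 2.44, 2.37 and 2.46 although its BTBR level was the highest in both classes. *Gucy1a1*, a subunit of the nitric oxide receptor guanylate cyclase, was at 120, 100 and 103 against 55.9, 48.5 and 45.4. *Robo3*, a receptor of the axon guidance family that acts at midline crossing, was at 179, 161 and 102 against 84.3, 79.4 and 54.8. *Trpc6*, a cation channel gene, was at 52.2, 63.7 and 28.0 against 22.7, 25.7 and 14.7. The BTBR levels of *Robo3* and *Trpc6* were lower in both classes, so the excess in layer 2/3 nuclei was kept at a lower level. The genes reported at the other end were *Fezf2*, *Htr1f*, *Col12a1*, *Pcp4*, *Sulf2*, *Tmem91*, *Grik3*, *Etv1* and *Rab34*. With the same thinning the highest ratio was 0.776 for *Rab34* and 0.671 for *Pcp4*, within the fold, and 0.278 in place of 0.485 for *Grik3*. *Htr1f*, a serotonin receptor, was at 43.1, 43.1 and 29.9 against 108, 102 and 89.1, and *Grik3*, a kainate receptor subunit, at 25.02, 23.3 and 22.1 against 61.7, 51.5 and 45.6. Of the 11 mitochondrially encoded transcripts compared, 8 were lower in layer 2/3 nuclei, beside 0.936% of all genes, with summed levels of 4079, 3479 and 3148 against 6861, 7036 and 4988. The median share of mitochondrial counts was 0.186%, 0.147% and 0.156% in layer 2/3 and 0.423%, 0.295% and 0.296% in remaining excitatory nuclei, and its part in this difference was not tested.

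Some of the chosen nuclei held markers of another cell type, in a larger share in *Nav1* KO and BTBR than in C57BL/6J. Chosen after the data were seen, *Cdhr1*, *Eomes* and *Tbx21*, which mark mitral and tufted cells, the projection neurons of the olfactory bulb, had 2 or more UMIs together in 1 C57BL/6J, 59 *Nav1* KO and 22 BTBR layer 2/3 nuclei. These are 0.164%, 6.97% (5.35–8.90%) and 4.09% (2.58–6.13%) of each. At least 1 UMI was present in 3, 99 and 64 nuclei, or 0.493%, 11.7% and 11.9%. Among remaining excitatory nuclei, 10, 153 and 153 held 2 or more, or 0.152%, 2.44% and 2.34%. At least 1 was present in 44, 398 and 603 of them, or 0.667%, 6.34% and 9.24%, at their lower depth. Such UMIs were therefore not particular to layer 2/3 nuclei. The list of 4 bulb markers, with *Doc2g* the most abundant, summed to 38.1, 167 and 136 scaled CPM in layer 2/3 nuclei and to 36.8, 124 and 124 over all kept nuclei. Among nuclei of an oligodendrocyte type, which should lack these genes, at least 1 UMI was found in 0 of 176, 0 of 125 and 4 of 123 nuclei, at lower median depths of 984, 1507 and 1384 UMIs.

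In the *Nav1* KO library, the 59 nuclei carried high levels of other bulb genes and lower levels of several upper-layer markers than the 747 nuclei without such a UMI. *Ntng1*, which encodes the axon guidance protein netrin-G1, was at 1937 against 189 scaled CPM, *Doc2g* at 724 against 40.6, *Tshz2* at 351 against 16.8 and *Reln*, the gene of the extracellular protein reelin, at 348 against 18.4. *Nectin3* was at 56.3 against 135, *Calb1* at 12.8 against 61.4 and *Lamp5* at 64.0 against 198. *Cux1* went the other way, at 212 against 124, as did *Mdga1*, an adhesion gene that missed the limit on low levels, at 71.7 against 9.69. In BTBR, the 22 nuclei had *Mdga1* at 36.4 against 5.97, *Ntng1* at 1567 against 160, *Doc2g* at 583 against 51.6 and *Nectin3* at 51.0 against 128. Their *Enpp2* was at 36.4 (11.8–85.0) against 141 (126–157), while *Calb1*, at 36.4 (11.8–85.0) against 55.0 (45.9–65.3), *Lamp5*, at 168 (106–252) against 176 (159–193), *Cux1*, at 138 (83.4–216) against 122 (108–137), and *Pou3f3*, at 109 (61.2–180) against 68.6 (58.4–80.1), had intervals that overlapped. The genes of the rule are left out here, since every nucleus was chosen by their UMIs. Values without every nucleus with a UMI of the 3 markers are given beside results that these nuclei moved.

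**Figure D3:**
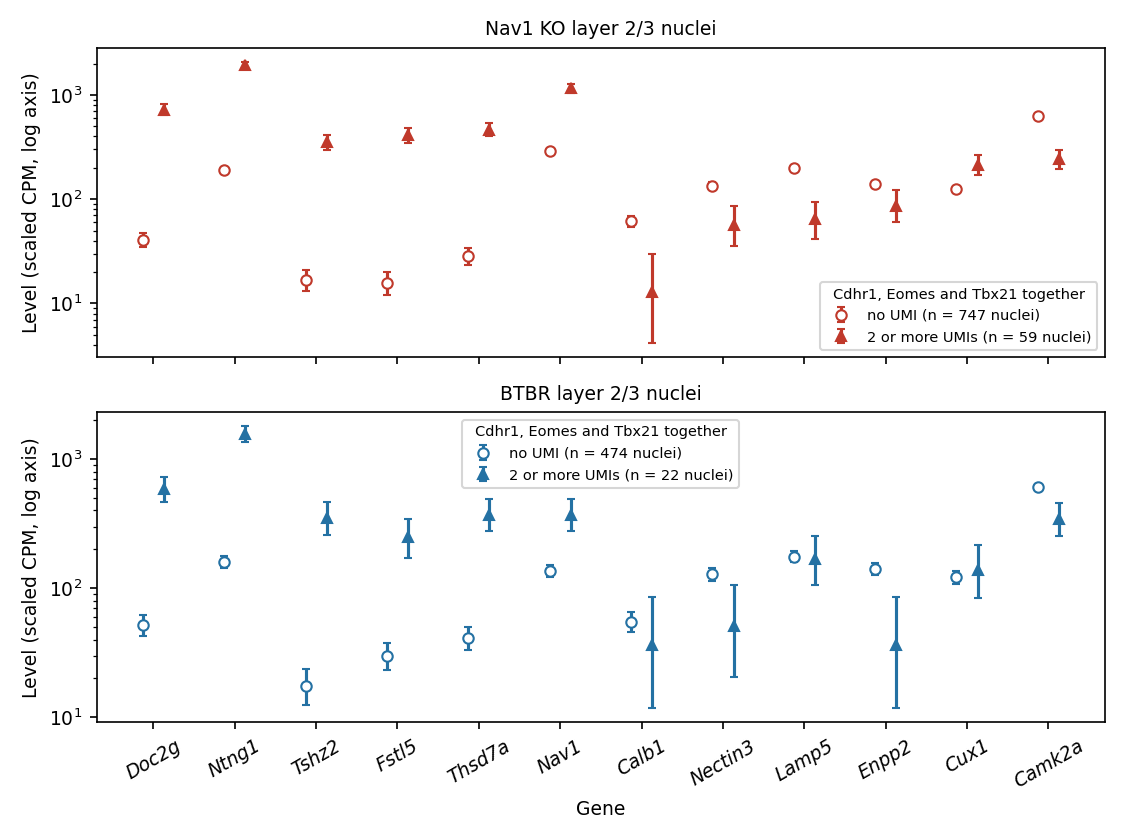
Levels (scaled CPM, log axis) of 12 genes in *Nav1* KO (top) and BTBR (bottom) layer 2/3 nuclei with no UMI (open circles) and with 2 or more UMIs (triangles) of *Cdhr1*, *Eomes* and *Tbx21* together, with exact 95% counting intervals. *Doc2g*, *Ntng1*, *Tshz2*, *Fstl5*, *Thsd7a* and *Nav1* lie higher in the nuclei with those UMIs of both libraries, and *Nectin3*, *Enpp2* and *Camk2a* lower, as *Nectin3* in *Nav1* KO at 56.3 against 135.

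*Nav1* (chr1:135434580-135607295, minus strand, GENCODE on GRCm38) was measured first as a check of the labels, although the 3′ tags of this assay lie outside the deleted part of exon 1, so that its level checks nothing about the deletion. In layer 2/3 nuclei it was at 356, 371 and 155 scaled CPM. The *Nav1* KO ratio to C57BL/6J was 1.04 (0.965–1.13), a difference within counting error, and BTBR was the lowest at 0.435 (0.387–0.488) times C57BL/6J. The 59 *Nav1* KO nuclei with 2 or more UMIs of the bulb markers had *Nav1* at 1159 (1055–1271). The 40 with 1 UMI had it at 550 (458–655), against 289 (273–305) in nuclei without such a UMI. Without every nucleus with a UMI of a bulb marker, the ratio to C57BL/6J was 0.820 (0.753–0.893) in *Nav1* KO and 0.384 (0.337–0.436) in BTBR. The remaining excitatory nuclei had *Nav1* at 339, 268 and 143, and those of an inhibitory type at 337, 256 and 144, with BTBR the lowest in both. The other navigator genes *Nav2*, at 457, 445 and 412, and *Nav3*, at 468, 486 and 444, were within 1.5-fold in both comparisons.

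Between the *Nav1* KO and C57BL/6J layer 2/3 nuclei, 317 of 6979 genes tested (4.54%) were at least 1.5-fold higher and 147 (2.11%) at least 1.5-fold lower in *Nav1* KO. With plain CPM in place of the scaling the split turned round, to 194 higher and 276 lower, so no balance of direction is read from these counts. Of the ratios, 90% lay between 0.722 and 1.48. Without the nuclei with a UMI of a bulb marker, 282 of 6920 genes were higher and 133 lower, of which 235 and 113 were also past the fold with all nuclei.

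*Cdhr1* was among the 10 genes with the highest *Nav1* KO ratio, and its UMIs help define the bulb-marker nuclei. Of those 10 genes, *Doc2g*, *Tshz2*, *Fstl5*, *Rapgef3*, *Rasa4* and *Thsd7a* were also higher in the bulb-marker nuclei of that library. Their intervals did not overlap those of nuclei without such a UMI, and their ratios were closer to 1 without the bulb-marker nuclei. The share of all genes tested with such a difference was not measured, so no excess is read from this. *Cdhr1*, a cadherin-related gene, had 6, 207 and 108 counts, or 2.18, 42.7 and 39.8 scaled CPM, and was 19.6-fold (8.86–54.1) higher in *Nav1* KO. This ratio was 7.15 with nuclei thinned to 2000 UMIs before the rule and 12.6 with 4 marker UMIs asked for. *Doc2g*, a relative of the calcium-sensing Doc2 genes, was at 35.5, 103 and 87.7, and its *Nav1* KO ratio of 2.90 became 1.22 without those nuclei. *Tshz2*, a zinc finger transcription factor gene of near-projecting cortical and bulb neurons, was at 9.79, 47.4 and 35.8, and its ratio went from 4.84 to 1.93. The ratio of *Fstl5* went from 4.18 to 1.39, of *Rapgef3*, an exchange factor activated by cAMP, from 5.204 to 1.31, of *Rasa4*, a Ras GTPase-activating protein gene, from 5.86 to 1.96, and of *Thsd7a* from 2.59 to 1.07. The sizes of the larger ratios rest on few C57BL/6J counts. Without the nuclei of the highest 10% of doublet scores, *Rapgef3* had 102 counts in *Nav1* KO against 2 in C57BL/6J, a ratio of 27.7 (7.48–232), in place of 119 against 13. With every nucleus at equal weight the *Rasa4* ratio was 10.8, and with 4 marker UMIs asked for the *Tshz2* ratio was 7.83 (3.85–18.5). *Ntng1*, which was not among the 10, went from 2.37 to 1.39 in *Nav1* KO and from 1.90 to 1.18 in BTBR. With all nuclei, BTBR levels of these genes were above those of C57BL/6J, which held 3 nuclei with a UMI of a bulb marker. Without the bulb-marker nuclei the BTBR ratio of *Rasa4* went from 2.69 to 0.926 (0.438–1.92), below 1, and that of *Rapgef3* from 7.04 to 4.20 (2.18–8.75). The BTBR ratios of *Doc2g*, *Fstl5*, *Thsd7a* and *Tshz2* were then 1.54, 2.65, 1.54 and 2.00.

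Of 10 upper-layer markers tested, *Calb1* alone was past the fold. It was lower in both comparisons, where 2.11% (*Nav1* KO) and 6.25% (BTBR) of all genes were, with ratios of 0.621 (0.521–0.740) in *Nav1* KO and 0.583 (0.472–0.719) in BTBR. The medians of the 10 ratios were 0.812 and 0.874. After thinning to 1000 UMIs a *Calb1* UMI was present in 9.03% (6.88–11.6%), 4.85% (3.50–6.53%) and 5.02% (3.33–7.22%) of layer 2/3 nuclei, against 1.19%, 1.06% and 1.27% of nuclei of an oligodendrocyte type. In the counts as deposited these shares were 31.5%, 24.1% and 21.4% of layer 2/3 nuclei. Without the bulb-marker nuclei the *Calb1* ratio was 0.676 in *Nav1* KO, which is no longer past the fold, and 0.603 in BTBR.

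Of the 10 genes with the highest *Nav1* KO ratio, the other 3 stayed past the fold without those nuclei. *Apod*, which encodes the lipid carrier apolipoprotein D of glia and meninges, was at 10.9, 45.6 and 14.7 scaled CPM, 4.19-fold (2.85–6.36) higher in *Nav1* KO and 4.00-fold without the bulb-marker nuclei, and 2.38-fold with nuclei thinned to 2000 UMIs before the rule. The bulb-marker nuclei had it at 56.3 (35.3–85.2) against 43.5 (37.4–50.2). *Apod* is 1 of 3 meningeal markers, whose summed level was 87.4, 231 and 150 in layer 2/3 nuclei and 239, 952 and 580 over all kept nuclei. *Ptgds*, which encodes prostaglandin D synthase and is the most abundant of them, and *Apod* were past the fold in *Nav1* KO. *Ptgds* was at 74.0, 179 and 128 in layer 2/3, at 113, 526 and 313 in remaining excitatory and at 139, 1082 and 490 in inhibitory-type nuclei, with *Nav1* KO the highest in each. The part of meningeal RNA in the *Apod* difference was not tested. *Tmem106c*, a transmembrane protein gene, was at 9.06, 31.3 and 32.1, 3.46-fold (2.25–5.51) higher in *Nav1* KO. *Gfra4*, a co-receptor of the GDNF family, was at 14.1, 43.7 and 40.2, 3.09-fold (2.19–4.47) higher. For both, BTBR lay beside *Nav1* KO and C57BL/6J alone was low, and the remaining excitatory nuclei had the same order for *Gfra4*, at 18.2, 45.4 and 43.3.

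**Figure D4:**
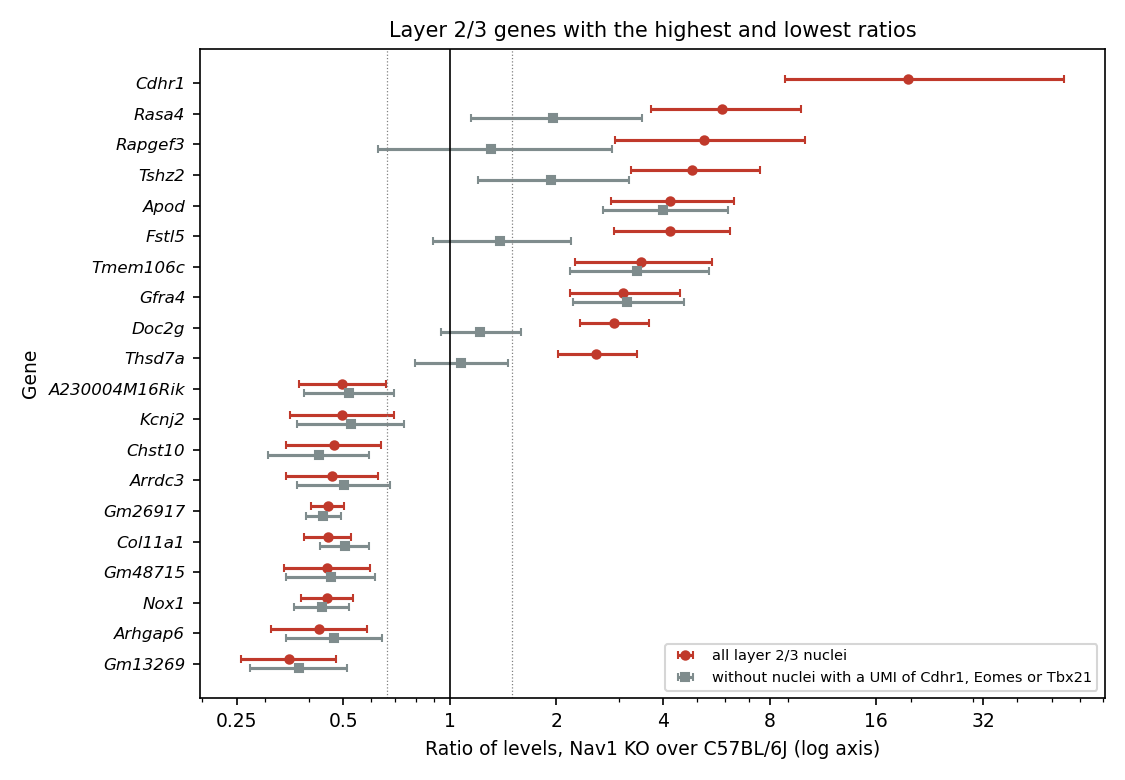
Ratio of levels in *Nav1* KO over C57BL/6J layer 2/3 nuclei (log axis) for the 10 highest and the 10 lowest genes, with exact 95% counting intervals. Circles are all layer 2/3 nuclei, squares leave out nuclei with a UMI of *Cdhr1*, *Eomes* or *Tbx21* (no square for *Cdhr1*), and dotted lines mark 1.5-fold in either direction. *Doc2g* moves from 2.90 to 1.22, while *Gfra4* at 3.09 and the 10 lowest genes stay near their place.

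The 10 lowest genes in *Nav1* KO layer 2/3 nuclei were *Gm13269*, *Arhgap6*, *Nox1*, *Gm48715*, *Col11a1*, *Gm26917*, *Arrdc3*, *Chst10*, *Kcnj2* and *A230004M16Rik*. With nuclei thinned to 2000 UMIs before the rule, the ratios of *Col11a1*, *Gm48715* and *Kcnj2* were 0.715, 0.681 and 0.681, within the fold. *Col11a1*, a fibrillar collagen gene, was at 136, 61.4 and 67.1 scaled CPM, 0.452 times (0.387–0.527) C57BL/6J. In remaining excitatory nuclei it was at 66.4, 34.0 and 56.9, so *Nav1* KO was the lowest there too. *Nox1*, which encodes a superoxide-producing NADPH oxidase, was at 114, 51.3 and 54.9, a *Nav1* KO ratio of 0.449 (0.379–0.532). *Arhgap6*, which encodes a GTPase-activating protein of the cytoskeleton, was at 36.6, 15.7 and 34.6, low in *Nav1* KO alone with a ratio of 0.428 (0.313–0.582). *Kcnj2*, an inward rectifier potassium channel gene, was at 28.3, 14.0 and 19.2, and *Arrdc3*, an arrestin-domain gene, at 37.7, 17.5 and 15.1. The BTBR level of all 5 also lay below that of C57BL/6J, for *Arhgap6* by little.

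In BTBR layer 2/3 nuclei more genes were past the fold than in *Nav1* KO, 513 (7.35%) at least 1.5-fold higher and 436 (6.25%) at least 1.5-fold lower. Without the bulb-marker nuclei they were 491 and 426 of 6920, and with all nuclei 90% of the ratios lay between 0.646 and 1.58. The BTBR sum held 2690810 UMIs against 5156609 in *Nav1* KO. On simulated counts, 0.700% of unchanged genes were past the fold for BTBR and 0.164% for *Nav1* KO. With nuclei thinned to 2000 UMIs before the rule, the counts were 1306 and 1220 in BTBR and 1168 and 1172 in *Nav1* KO. The part of depth in the difference was not tested. Both comparisons share the C57BL/6J library. All libraries were aligned to mm10, the genome of C57BL/6J. *Lsm4*, which encodes a subunit of an RNA-binding ring of the splicing machinery, had the highest ratio. It was at 9.43, 9.69 and 231 scaled CPM, 24.6-fold (16.6–37.9) higher in BTBR. After thinning to 1000 UMIs an *Lsm4* UMI was present in 1.31%, 0.592% and 19.5% of layer 2/3 nuclei and in 1.19%, 2.13% and 6.33% of nuclei of an oligodendrocyte type, and without thinning in 4.11%, 5.32% and 58.0% of layer 2/3 nuclei. It was also high in BTBR in remaining excitatory nuclei, at 8.03, 11.2 and 169, and in nuclei of an oligodendrocyte type, at 21.5, 11.0 and 89.3. *Sav1*, an adaptor of the Hippo pathway, was at 22.1, 21.2 and 196, 8.87-fold (6.79–11.8) higher in BTBR, and in remaining excitatory nuclei at 22.3, 20.1 and 186. *Cep19*, a centrosome and cilium gene, was at 15.95, 33.2 and 113, *Asna1*, which encodes the ATPase that delivers tail-anchored proteins to the endoplasmic reticulum, at 12.7, 14.6 and 80.7, and *Pla2g4e*, a phospholipase A2 gene that makes N-acyl phospholipids, at 9.43, 8.45 and 52.0. With nuclei thinned to 2000 UMIs before the rule the BTBR ratios of *Sav1*, *Cep19* and *Pla2g4e* were 14.9, 4.38 and 8.84. In the levels of each of these genes the C57BL/6J and *Nav1* KO libraries lay together and BTBR stood apart, save for *Cep19*, where *Nav1* KO was between. The rest of the 10 were *Arsj*, *Srek1ip1*, *Amy1*, a member of a family of near-identical amylase genes and so uncertain, and *Cdhr1* and *Rapgef3*, which were high in the bulb-marker nuclei.

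**Figure D5:**
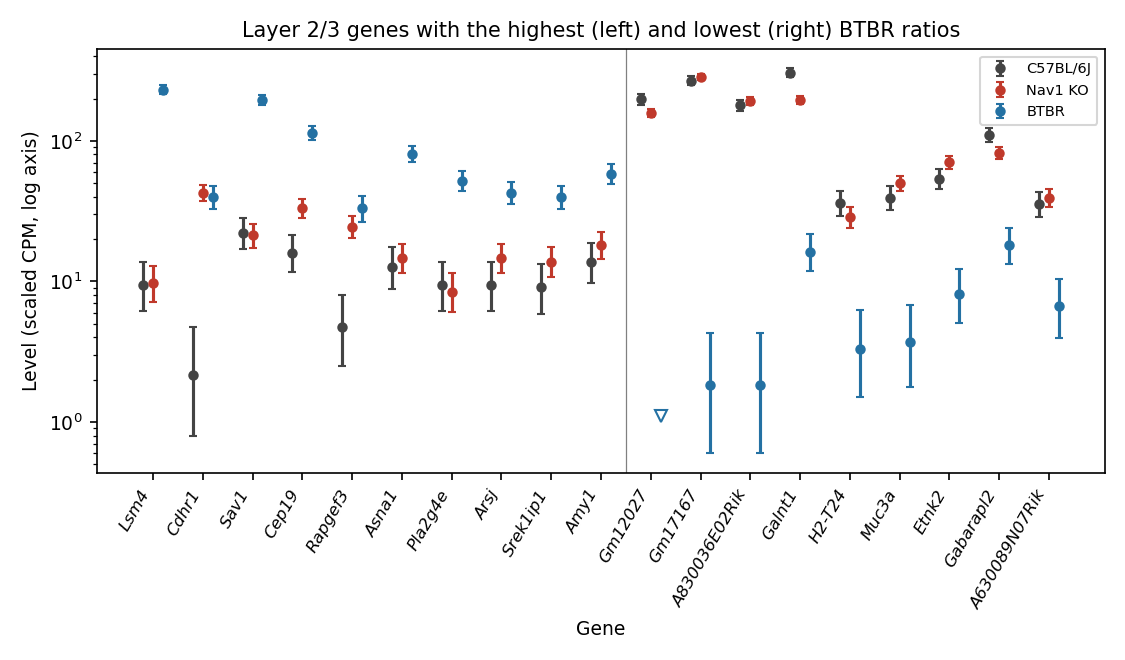
Levels (scaled CPM, log axis) in layer 2/3 nuclei of the 3 libraries for the genes at the top (left, 10) and bottom (right, 9) of the BTBR over C57BL/6J ratios, with exact 95% counting intervals. The open triangle is the upper limit of 3 counts for *Gm12027*, which had 0 counts in BTBR. C57BL/6J and *Nav1* KO lie together for *Lsm4*, at 9.43 and 9.69, and for *Gm17167*, at 267 and 284, with BTBR apart at 231 and 1.84.

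At the low end, *Gm12027*, a long noncoding RNA (chr11:19626761-19628061), had 544, 765 and 0 counts, which makes it lower in BTBR by a ratio of at most 0.00561 when 3 counts are taken as the limit. *Gm17167* was at 267, 284 and 1.84 scaled CPM and *A830036E02Rik*, an antisense transcript, at 179, 191 and 1.84. Of the protein-coding genes, *Galnt1*, which encodes an enzyme that starts O-linked glycosylation, was at 306, 196 and 16.2, a BTBR ratio of 0.0531 (0.0383–0.0719), and in remaining excitatory nuclei at 264, 171 and 18.7. *Etnk2*, an ethanolamine kinase gene, was at 53.7, 70.5 and 8.11, and *Gabarapl2*, an autophagy gene of the Atg8 family, at 111, 82.2 and 18.1. *Muc3a* and *A630089N07Rik* completed the protein-coding genes together with *H2-T24*, which belongs to the polymorphic class I histocompatibility family and is uncertain. BTBR stood below both other libraries for every gene named here, and for *Galnt1* and *Gabarapl2* the *Nav1* KO level lay between.

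Genes regulated by neuronal activity were examined as a list of 26, chosen like all lists here with earlier results of these data known, of which 12 passed the limit on low levels. In *Nav1* KO 1 was past the fold upward and none downward, with a median ratio of 1.18, beside 4.54% higher and 2.11% lower over all genes. In BTBR 4 were higher and 2 lower, beside 7.35% and 6.25%, with a median of 1.34, while the median over all genes tested was 1.00 in both comparisons. *Arc*, which encodes a synaptic protein that regulates AMPA receptor uptake, was at 19.2, 34.8 and 47.9 scaled CPM, 1.81-fold (1.32–2.52) higher in *Nav1* KO and 2.49-fold (1.80–3.50) higher in BTBR. *Npas4*, an activity-induced transcription factor, was at 31.9, 45.6 and 70.4, *Junb*, a subunit of the AP-1 factor, at 54.4, 57.3 and 120, and *Btg2*, an antiproliferative co-regulator, at 21.8, 27.2 and 62.7. BTBR was highest for all 4 and C57BL/6J lowest. The activity genes *Bdnf*, a neurotrophin, at 50.4, 60.4 and 32.4, and *Inhba*, an activin subunit, at 45.3, 44.5 and 25.8, were lowest in BTBR. Without the bulb-marker nuclei the BTBR ratio of *Bdnf* went from 0.644 to 0.679, no longer past the fold. *Homer1*, a postsynaptic scaffold gene and the most abundant of the list, was at 240, 217 and 212. The remaining excitatory nuclei also had *Junb* highest in BTBR, at 50.7, 65.5 and 147, and *Arc*, at 25.3, 35.6 and 69.0.

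Many such genes are induced through CREB, a factor that binds the cAMP response element TGACGTCA. Of 19 listed genes with a promoter in the RefSeq table of GRCm38.p6 (250 bases before to 50 after the start), 2 (10.5%), *Btg2* and *Dusp1*, held these letters, which read the same on both strands, against 549 of 27025 genes in the table (2.03%), a gene with several windows counting once. *Btg2* is shown as the only 1 of the genes past the fold in BTBR whose window held the element, in capitals from base 85, in chr1:134079106-134079405 on the minus strand. The match describes letters and is not evidence of binding.
Btg2: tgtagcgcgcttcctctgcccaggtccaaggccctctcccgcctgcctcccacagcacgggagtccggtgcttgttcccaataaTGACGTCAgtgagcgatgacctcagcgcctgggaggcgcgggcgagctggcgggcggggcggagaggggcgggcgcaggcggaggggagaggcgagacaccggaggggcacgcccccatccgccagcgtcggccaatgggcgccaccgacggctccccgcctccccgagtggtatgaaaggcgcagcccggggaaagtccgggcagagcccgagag

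Circadian clock genes were measured with 15 of 17 members as genes whose transcripts oscillate over the day. In *Nav1* KO 2 were higher and none lower (4.54% and 2.11% of all genes), with a median ratio of 1.05, and in BTBR 2 were higher and 2 lower (7.35% and 6.25%), with a median of 1.11. *Per3*, a repressor of the clock loop, was at 232, 206 and 148 scaled CPM, *Nr1d2*, which encodes the nuclear receptor REV-ERB beta, at 68.9, 86.2 and 115, and *Npas2*, a partner of BMAL1, at 34.1, 26.8 and 18.8. These 3 were named after their values were seen, and none of them was past the fold in *Nav1* KO. They kept the same order of libraries or its reverse, with *Nav1* KO between. Of 5 glucocorticoid response genes, 1 was lower in *Nav1* KO (2.11% of all genes) and none was past the fold in BTBR. Of 8 heat shock genes, *Hspa8*, a constitutive chaperone, was higher in *Nav1* KO (4.54% of all genes) at 102, 170 and 111, 1 was lower, and none was past the fold in BTBR.

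Genes of synaptic transmission were described by family, beside shares of all genes past the fold of 4.54% higher and 2.11% lower in *Nav1* KO and 7.35% and 6.25% in BTBR, at which few members of lists this short would be past it. None of the 4 AMPA, 4 NMDA and 4 kainate receptor subunits, 6 metabotropic glutamate receptors or 12 GABA receptor subunits tested was past 1.5-fold in either comparison. *Gria2*, the AMPA subunit that limits calcium entry, was at 4718, 4801 and 5130 scaled CPM, with ratios of 1.02 (0.996–1.04) in *Nav1* KO and 1.09 (1.06–1.11) in BTBR. *Grin2b*, an NMDA receptor subunit, was at 1408.5, 1403 and 1360.1, a *Nav1* KO ratio of 0.996 (0.957–1.04). None of 24 sodium and calcium channel genes or of 22 postsynaptic scaffold and adhesion genes was past the fold, and the median ratio of the latter was 0.901 in *Nav1* KO and 0.902 in BTBR. Of 22 vesicle release genes 1 was lower in both comparisons, where 2.11% (*Nav1* KO) and 6.25% (BTBR) of all genes were. *Unc13a*, which primes synaptic vesicles for fusion, was at 300, 199 and 194, and in remaining excitatory nuclei at 281, 189 and 192, so C57BL/6J was the highest in both classes. Without the bulb-marker nuclei its *Nav1* KO ratio went from 0.663 to 0.670, just within the fold. Of 23 potassium and HCN channel genes, *Kcnip4*, an auxiliary subunit of Kv4 channels, was higher in *Nav1* KO at 324, 492 and 418, 1.52-fold (1.40–1.64) over C57BL/6J and 1.60-fold without the bulb-marker nuclei, and 1 was lower in BTBR, beside 4.54% and 6.25% of all genes. Of 5 monoamine and acetylcholine receptors, *Htr2a*, a serotonin receptor of cortical pyramidal cells, was higher in *Nav1* KO at 20.7, 35.0 and 19.5, 1.70-fold (1.25–2.33), where 4.54% of all genes were. None of the 4 cannabinoid, opioid and peptide receptors was past the fold.

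Of 29 axon guidance genes, 3 were higher and 1 lower in *Nav1* KO, beside 4.54% and 2.11% of all genes. The higher ones were a larger share than over all genes. In BTBR 2 were higher and 2 lower (7.35% and 6.25%), near the share over all genes. The median ratios were 0.969 in *Nav1* KO and 0.993 in BTBR. The genes higher in *Nav1* KO were *Ntng1*, *Sema3a* and *Sema6a*. Without the bulb-marker nuclei the ratios of *Sema3a* and *Sema6a* went from 1.87 to 1.37 and from 1.55 to 1.20, so that none of the 3 was past the fold. Of 18 cadherin genes, 2 were higher in *Nav1* KO (4.54% of all genes), and 1 was higher and 2 lower in BTBR (7.35% and 6.25%). *Cdh2*, which encodes N-cadherin, was at 181, 151 and 97.3 and was lower in BTBR with a ratio of 0.538 (0.462–0.626).

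Of the neuropeptide genes, 4 were tested, of which 3 were lower in *Nav1* KO and 2 in BTBR, beside 2.11% and 6.25% of all genes. *Penk*, the enkephalin precursor, was at 47.1, 25.4 and 21.0 scaled CPM, *Npy*, neuropeptide Y, at 37.0, 19.99 and 18.4, and *Sst*, somatostatin, at 34.4, 19.6 and 33.2, while *Cck*, cholecystokinin, was at 173, 243 and 236. *Sst* and *Npy* are far more abundant in nuclei of an inhibitory type, at 2464, 999.6 and 840.0 for *Sst* and 1103, 521 and 669 for *Npy*, where C57BL/6J was also the highest. Their part in the layer 2/3 difference was not tested. The summed level of 7 inhibitory markers outside the rule was 102, 63.7 and 111, and that of 5 oligodendrocyte markers 167, 165 and 125. Markers of microglia summed to 14.1, 12.4 and 14.0, of endothelial cells to 1.81, 6.39 and 2.95 and of astrocytes to 28.3, 46.6 and 55.7. Of 69 ribosomal protein genes 2 were higher in *Nav1* KO (4.54% of all genes), and 3 higher and 6 lower in BTBR (7.35% and 6.25%), shares near or below those over all genes save for the lower ones in BTBR, which were slightly above. Of 45 nuclear genes of oxidative phosphorylation 2 were higher in *Nav1* KO (4.54%), and 3 higher and 1 lower in BTBR (7.35% and 6.25%), near or below the background. Of 10 mitochondrially encoded genes 1 was lower in *Nav1* KO (2.11%) and 3 in BTBR (6.25%).

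Layer 2/3 nuclei with an *Otof* UMI were compared with those without, a split made on a measured count and so a description. There were 162, 179 and 144 with *Otof* and 447, 667 and 394 without, with medians of 3870.5, 5732 and 4071 UMIs against 3994, 5144 and 4585.5. Of 6936 genes tested, 2 (0.0288%) were at least 1.5-fold higher with *Otof* in 3 of 3 libraries and 9 (0.13%) at least 1.5-fold lower. The higher genes were *Plk5*, with ratios of 1.53, 1.61 and 1.52, and *Zfhx2os*, an antisense transcript, with 1.69, 2.34 and 1.95. The lowest *Plk5* ratio was 1.48 without the nuclei of the highest 10% of doublet scores and 1.23 with layer 2/3 nuclei thinned to 2000 UMIs, both within the fold. The middle-layer gene *Rorb* was lower, with ratios of 0.420, 0.613 and 0.523, as were *Nr4a1*, an activity-induced nuclear receptor, with 0.628, 0.511 and 0.584, and *Coro6*, an actin-binding coronin gene, with 0.364, 0.254 and 0.508. In *Nav1* KO, nuclei with 2 or more UMIs of the bulb markers had *Coro6* at 517, against 34.0 in nuclei with none. Without the bulb-marker nuclei the ratios of *Coro6* were 0.385, 0.477 and 0.715 and those of *Plk5* 1.519, 1.471 and 1.504. Neither was then past the fold in 3 of 3 libraries. *Cdhr1* and *Tshz2* were lower too, but after thinning to 2000 UMIs the highest *Tshz2* ratio of the 3 libraries was 3.21, and without the nuclei of the highest 10% of doublet scores it was 0.941, within the fold. With that thinning 59 genes were higher and 51 lower, and without the bulb-marker nuclei 3 genes were higher and 5 lower. *Plk5* was higher in layer 2/3 than in remaining excitatory nuclei and, among layer 2/3 nuclei, higher in those with *Otof*, although in *Nav1* KO by less than 1.5-fold without the bulb-marker nuclei.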

How the data were processed

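The authors deposited filtered matrices of counts, as whole UMIs per gene and nucleus, for each of 3 libraries. They were made with Cell Ranger 6.0.0 and the mm10 reference, and the counts were used as deposited. Nuclei were kept that had 200 or more genes and less than 10% of mitochondrial counts, and the layer 2/3 rule was applied to each nucleus. The members and the gene lists were chosen with earlier results of these data known. Counts were summed per class and library. Intervals of gene ratios are exact and come from splitting a gene's counts binomially, while levels have exact Poisson intervals and shares exact Clopper-Pearson intervals. A gene was tested at a mean of at least 20 CPM over the 3 libraries and called at 1.5-fold. Nuclei of an oligodendrocyte, inhibitory or *Rorb* type were chosen by marker UMIs. The genes named are those of the rule, the most abundant members of each list, and the 10 highest and 10 lowest ratios of each comparison, and list members outside this rule were named after their values were seen. The bulb-marker split was added after the data were seen. Scrublet in scanpy 1.11.5 called at most 1 doublet per library and so did not work. No nucleus was removed as a doublet, and an alternative left out the tenth with the highest scores, which held 12.0%, 9.57% and 11.9% of the layer 2/3 nuclei of C57BL/6J, *Nav1* KO and BTBR. Some layer 2/3 nuclei may therefore be doublets. On simulated counts with 200 changed genes, 176 were recovered for *Nav1* KO over C57BL/6J (6900 genes) and 186 for BTBR over C57BL/6J (6903 genes). Python 3.11.15 with numpy 2.4.6, scipy 1.17.1 and pandas 2.3.3 was used. Coordinates are from GENCODE and promoters from RefSeq. Some genes that the naming rule selects are not reported here, and counts and medians over lists include them.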

Additional observations from a re-analysis of the deposited data

Results flagged for a closer look

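Nuclei that failed the limits on genes or mitochondrial counts were outside every comparison. Among the 567 that failed in the *Nav1* KO library, 6 (1.06%) met the layer 2/3 marker rule, a smaller share than the 6.02% of kept nuclei. The item was flagged because it passed 0.529%, the most that a count of 0 would allow, which is no test of an excess. In C57BL/6J 3 of 772 and in BTBR 1 of 460 did so.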

How the results depend on the processing

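No paired analysis was possible because each group had 1 library. The lack of replicate libraries limits every comparison, and no replicate could be left out. Asking for 2 marker UMIs gave shares of 8.05%, 10.8% and 7.93% (C57BL/6J, *Nav1* KO, BTBR) and a BTBR ratio of 0.986. Asking for 4 gave 1.88%, 3.14% and 1.63%, a *Nav1* KO ratio of 1.67 and 244 genes lower in *Nav1* KO. Of excitatory nuclei alone, the shares were 8.45%, 11.9% and 7.62%. Nuclei of at least 2000 UMIs with counts as deposited, an alternative added after the data were seen, gave 7.25%, 8.64% and 5.53%, with ratios of 1.19 and 0.764. Thinning to 1000 UMIs before the rule gave 0.262%, 0.242% and 0.205%, with a *Nav1* KO ratio of 0.926, below 1. Thinning to 2000 gave 2.02%, 1.67% and 1.69%, a ratio of 0.824, and counts of genes past 1.5-fold that rose with the fewer nuclei and UMIs left, 1168 higher and 1172 lower in *Nav1* KO and 1306 and 1220 in BTBR. The *Nav1* KO, BTBR and layer 2/3 comparisons had 60 ratios of their 10 highest and 10 lowest genes. The same thinning moved 24 of them by over 1.5 times, none across 1. It brought 8 of the 60 within 1.5-fold, *Col11a1* (0.715), *Gm48715* and *Kcnj2* (both 0.681) in *Nav1* KO, and *Stard8* (1.01), *Vmn2r84* (1.41), *Gucy1a1* (1.48), *Rab34* (0.776) and *Pcp4* (0.671) for the lowest or highest ratio of layer 2/3 over remaining excitatory nuclei. With plain CPM 194 genes were higher and 276 lower in *Nav1* KO. With every nucleus at equal weight 125 genes were lower in layer 2/3 than in remaining excitatory nuclei. At a mean of 5 CPM, which tests more and lower genes, 887 were higher and 542 lower in *Nav1* KO, 1238 and 1098 in BTBR and 93 and 173 in layer 2/3 over remaining excitatory nuclei, and at 50 CPM, 112 and 44, 177 and 187, and 20 and 27. With layer 2/3 nuclei thinned to 2000 UMIs, 59 genes were higher and 51 lower with *Otof*, the lowest of the 3 library ratios fell below 1 for *Ccdc171* (0.844), *Herpud2* (0.938), *Tmem136* (0.777), *Tmtc4* (0.450) and *Vdac3* (0.844), and the highest was above 1 for *Tshz2* (3.21). The cause of these changes was not tested. Without nuclei with a UMI of *Cdhr1*, *Eomes* or *Tbx21*, an alternative added after the data were seen, 5 genes were lower with *Otof*. Limits of 5% mitochondrial counts, no nuclei with the highest 10% of doublet scores and totals without mitochondrial counts kept every count within 1.5 times. Without the highest doublet scores, however, the *Rapgef3* ratio was 27.7 in *Nav1* KO and 42.4 in BTBR, both against 2 counts in C57BL/6J, and *Tshz2* with *Otof* was no longer past the fold (0.941). Of the ratios of the 10 highest and 10 lowest genes of each comparison, 4 moved by over 1.5 times there. With 2 and 4 marker UMIs 2 and 9 did so, with equal weights 3 (among them *Rasa4*, 10.8). Without bulb-marker nuclei 7 did so, and none of all these moved across 1. Outside these ratios, the BTBR ratio of *Rasa4* and the *Nav1* KO ratio of *Nav1* went below 1 without the bulb-marker nuclei.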

Other observations

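The genes that varied most among layer 2/3 nuclei were described by the Fano factor, the variance of a gene's count over its mean, after each nucleus was thinned to 2000 UMIs (552 C57BL/6J, 819 *Nav1* KO and 522 BTBR nuclei), and they were chosen for their values. The median over the genes tested was 1.02, 1.03 and 1.02. *Malat1*, an abundant nuclear noncoding RNA, had the highest values at 33.8, 44.2 and 48.3, followed by mitochondrially encoded transcripts such as *mt-Atp6* at 5.93, 5.86 and 5.18. *Ntng1* was at 2.03, 6.21 and 4.70, higher in the libraries with more bulb-marker nuclei. *Sst*, a gene of inhibitory neurons, was at 6.53, 3.38 and 1.80, highest in C57BL/6J. *Ndst4*, which encodes an enzyme of heparan sulfate synthesis, was at 2.39, 2.51 and 2.13, so it varied to a like degree in the 3 libraries.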
